A study of Homo sapiens with 16 samples.

Results

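The MYC and MAX network genes were followed in the cytoplasmic RNA (Input) and the polysome-associated RNA (Polysome) of HEK293 cells, an established human embryonic kidney line, with and without silencing of Gemin5. The 10 members, MYC, MYCN, MYCL, MAX, MXI1, MXD1, MXD3, MXD4, MNT and MGA, were found by the symbol of their Ensembl identifier among 58302 genes in the count files. The 16 libraries form 4 groups of 4. In siRNAG5 cultures Gemin5, an RNA-binding protein of the SMN complex that also binds ribosomes, was silenced with 100 nM of a small interfering RNA (siRNA) delivered with a lipid reagent, whereas Ctrl cultures did not receive it. The study describes a control siRNA for the Ctrl cells, whereas the sample labels call them untreated. If the labels hold, an effect of transfection cannot be told apart from that of silencing. All groups are the same cell line, and the libraries of a group come from independent samples. Input was the RNA of cytoplasmic lysates, and Polysome the RNA of the combined heavy fractions of sucrose gradients.

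MYC, MYCN and MYCL are basic helix-loop-helix transcription factors that bind the E-box CACGTG only as dimers with MAX, and they drive genes of growth and ribosome production. MXD1, MXI1, MXD3, MXD4 and MNT compete for MAX, bind the same E-box and recruit the SIN3 and HDAC corepressors. MGA is a very large MAX partner found in a variant Polycomb complex, PRC1.6. MYC mRNA and protein are short-lived, and the balance of MYC and MXD proteins on MAX is known to shift between dividing and resting cells.

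The siRNA is shown because the seed of its antisense strand could pair with other mRNAs. The first line is the Gemin5 siRNA as designed, with the stretch that pairs with the seed in capitals, and the second is the strand complementary to its first 19 bases, with its seed (bases 2 to 8) in capitals.
siRNAG5 sense: ccuuaaucaagAAGAGAAauu
complementary strand: uUUCUCUUcuugauuaagg
The 7 bases AAGAGAA occurred in the canonical transcript (GENCODE v44) of 2 of the 10 members, 1 time in MXD1 and 5 times in MGA, whose transcript is the longest at 12193 nt, compared with 47.3% of 11884 protein-coding genes tested in Input. They did not occur in the canonical transcripts of the other members, and exons outside canonical transcripts were not searched. An action of the seed on any member was not tested. A match in letters is a description and not a site of action.

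The E-box was looked for in the members' own promoters, since this is the motif their proteins bind. RefSeq promoter windows of GRCh38.p14, from 250 bases before to 50 after a start site, were given for 9 members, 14 windows in all. The palindrome CACGTG stood in 2 of the 14, those of MXD4 and MNT, against 7.26% of 35116 windows of all genes. The 2 stretches of 30 bases follow, on the minus strand of each gene, with the E-box in capitals.
MXD4, chr4:2262330-2262359: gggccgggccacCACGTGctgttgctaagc
MNT, chr17:2401236-2401265: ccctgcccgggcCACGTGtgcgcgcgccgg
The E-box began 238 bases before the MXD4 start site and 193 before that of MNT. MXD4 was called lower after siRNAG5 in both fractions and MNT in neither.

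Reads counted on genes ranged from 11145324 to 24511299 per library and are the depth behind every value. GEMIN5 mRNA, the check of the labels, was lower in siRNAG5 in both fractions, with a log2 FC of -1.40 ± 0.12 in Input (SE, edgeR adjusted p = 3.105e-10) and -1.44 ± 0.21 in Polysome (adjusted p = 0.00477). All 8 HEK293 markers had reads in each group, with a summed level of 282 to 456 CPM (read counts scaled to the size of the library). Liver genes such as ALB and APOB, which kidney cells lack, were present with the Ctrl condition. The 14 liver markers summed to 99.0 to 213 CPM in Polysome Ctrl, to 118 and 102 CPM in Input Ctrl replicates 3 and 4, to 2.09 and 0.893 CPM in Input Ctrl replicates 1 and 2, and to at most 1.11 CPM in siRNAG5 libraries, where 7 of the 14 were at 0 reads in each fraction. The 7 blood markers summed to 2.56 to 3.97 CPM in Input, 9.63 to 10.9 CPM in Polysome Ctrl and 5.43 to 7.60 CPM in Polysome siRNAG5. Polysome Ctrl replicate 1 and siRNAG5 replicates 1 and 4 lay apart from the other libraries on the third principal component, at 35.3 to 38.5, where the others lay between -26.3 and 4.95.

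Levels are given as CPM on the TMM scale of the fit within a fraction, and calls required an adjusted p (Benjamini-Hochberg) below 0.05 together with a log2 FC past 0.5 in size. Input levels and Polysome levels are therefore not on a common scale and are not to be compared with each other. In bulk RNA, fewer cells that express a gene and less of its RNA per cell cannot be told apart. Members are not equally well measured. MYC, MAX, MXI1, MXD3 and MXD4 had 204 to 3670 reads per library. MYCL, MNT and MGA had 15 to 179 reads, MXD1 had 2 to 79 and MYCN had 0 to 19. MYCN had no read in Polysome Ctrl replicate 1, which allows up to 0.269 CPM before TMM scaling (3 reads, counting error only). The filter on low counts passed 8 members in the Input comparison, without MYCN and MXD1, and 9 in each of the others, without MYCN.

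Per kilobase of exon, MXD4 and MYC were the most abundant members and MAX followed. In Input Ctrl the order was MXD4 at 15.7 ± 1.61 CPM per kb (SD, n = 4), MYC at 11.6 ± 1.26, MAX at 5.35 ± 0.218, MXD3 at 3.54 ± 0.165, MXI1 at 2.69 ± 0.299, MYCL at 0.476 ± 0.0712 and MNT at 0.182 ± 0.0273. MYCN, MXD1 and MGA lay at 0.0592 to 0.0897 CPM per kb, and the libraries of neighbours among these 3 overlapped. In Input siRNAG5, MYC came ahead of MXD4, with 15.0 ± 0.852 and 10.7 ± 0.979 CPM per kb, and MXD3 came ahead of MAX, with 5.04 ± 0.464 and 3.28 ± 0.267. In Polysome Ctrl, MXD4 led at 22.6 ± 3.52 CPM per kb and the libraries of MYC, at 16.1 ± 2.55, overlapped those of MAX, at 15.7 ± 0.962. In Polysome siRNAG5, MYC led at 24.5 ± 4.26, and MXD4 at 13.9 ± 3.73 overlapped MAX at 13.0 ± 1.68. The ranks of MAX and MXD3 depended on the length used, since their canonical transcripts of 2010 and 1067 nt are much shorter than all their exons together, 6257 and 4743 nt. Per kilobase of canonical transcript, MAX led in Polysome Ctrl with 48.9 ± 3.00 CPM per kb. On that length MAX also stood beside MYC at the top in Polysome siRNAG5, with 40.6 ± 5.24 and 40.3 ± 7.00, and MXD3 at 22.4 ± 2.06 came ahead of MXD4 at 19 ± 1.74 in Input siRNAG5.

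**Figure D1:**
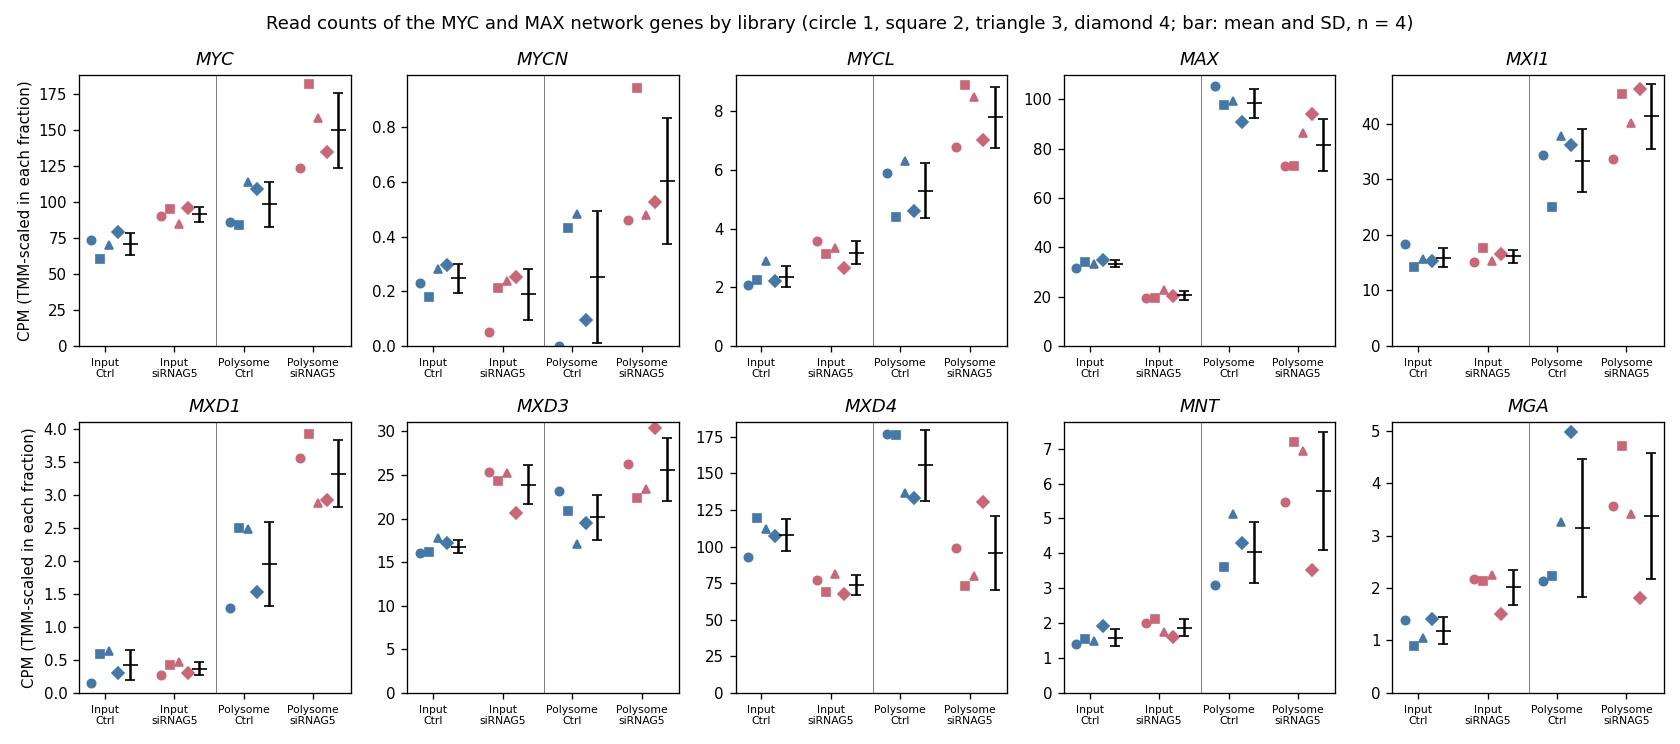
CPM (vertical axis, TMM-scaled within each fraction) of the 10 network genes in each of the 16 libraries, with Ctrl in blue, siRNAG5 in red, the replicate as the marker shape and the mean and SD (n = 4) as a bar beside the points. MAX and MXD4 in Input Ctrl lie above all Input siRNAG5 libraries, and MYC lies higher in all siRNAG5 libraries than in the Ctrl libraries of the same fraction. Input and Polysome points are not on a common scale.

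In Input, the comparison of siRNAG5 with Ctrl asked how silencing changed the mRNA pool. The obligate partner MAX and the repressor MXD4 fell, and MXD3 and MGA rose. Thus 2 of the 8 members tested were called lower, where 6.02% of 14134 genes tested were, and 2 were called higher, where 10.5% were. The median log2 FC of the 8 was 0.30, beside 0.04 over all genes.

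MAX stood at 31.7, 34.2, 33.1 and 34.8 CPM in the 4 Input Ctrl libraries and at 19.3, 19.5, 22.9 and 20.4 CPM in the 4 Input siRNAG5 libraries. The groups were far apart, and the fall came to -0.70 ± 0.08 on the log2 scale (SE, edgeR adjusted p = 1.005e-07). It was called under each of the 17 alternatives, with log2 FC between -0.76 and -0.60. On the opposite strand MAX shares 13.1% of its exon bases with FNTB, a farnesyltransferase subunit, which was at 3.10 ± 0.661 CPM in Ctrl and 2.97 ± 0.303 in siRNAG5 (SD, n = 4).

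MXD4 stood at 93.1, 119, 112 and 107 CPM in Input Ctrl and at 77.1, 68.8, 81.4 and 67.2 CPM in Input siRNAG5. All Ctrl libraries were higher, and the fall came to -0.55 ± 0.08 (adjusted p = 1.371e-06, edgeR). Of 17 alternatives only scaling by library size alone, which left it at -0.45, lost the call.

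MXD3, a repressor otherwise known for its expression in cells in S phase, stood at 16.1, 16.2, 17.7 and 17.1 CPM in Input Ctrl and at 25.3, 24.4, 25.2 and 20.7 CPM in Input siRNAG5. The groups did not overlap. The rise of 0.51 ± 0.09 (adjusted p = 5.79e-05, edgeR) was close to the fold limit and ranged from 0.48 to 0.61 over the alternatives, so that RLE size factors, DESeq2, the fit of all 16 libraries and the removal of Ctrl replicate 1 or 2 or of siRNAG5 replicate 1 or 3 took it below 0.5. MXD3 shares 24.2% of its exon bases with PRELID1 on the opposite strand and 19.5% with RAB24 on its own strand. PRELID1, a mitochondrial lipid transfer protein, was at 1179 ± 74.6 CPM in Input Ctrl and 732 ± 30.4 in siRNAG5 (SD, n = 4). RAB24 was at 6.02 ± 0.441 and 6.08 ± 1.01 CPM. Reads on more than 1 gene were left out, so the shared bases may give MXD3 no counts while they remain in its exon length. The part of these neighbours in the values of MXD3 was not tested.

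MGA stood at 1.39, 0.893, 1.05 and 1.41 CPM in Input Ctrl and at 2.17, 2.13, 2.25 and 1.51 CPM in Input siRNAG5. Its groups did not overlap, at 15 to 19 reads in Ctrl and 36 to 57 in siRNAG5. The rise of 0.77 ± 0.24 (adjusted p = 0.0105, edgeR) was lost without Ctrl replicate 2 (log2 FC 0.64, adjusted p = 0.0579) and in the fit of all 16 libraries.

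MYC itself stood at 73.4, 60.6, 70.5 and 79.0 CPM in Input Ctrl and at 90.1, 95.1, 84.8 and 96.2 CPM in Input siRNAG5. All 4 siRNAG5 libraries were higher. The difference of 0.37 ± 0.08 had an adjusted p of 0.000233 (edgeR) but lay below the fold limit, also under each of the 17 alternatives, where it was 0.30 to 0.47. Without the 2 Input Ctrl libraries with liver RNA, MYC was at 0.45, MAX at -0.69, MXD4 at -0.54, MXD3 at 0.56 and MGA at 0.83, and the same 4 members were called. Of 14724 genes tested in that fit, 977 were called lower and 1468 higher.

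Of the others, MYCL, the family member first found in lung cancer, went from 2.36 ± 0.353 to 3.18 ± 0.403 CPM (SD, n = 4; log2 FC 0.42, edgeR adjusted p = 0.0649). MXI1 was at 15.9 ± 1.77 and 16.1 ± 1.16 CPM (log2 FC 0.02), and MNT at 1.59 ± 0.237 and 1.87 ± 0.245 CPM (log2 FC 0.22, adjusted p = 0.444, edgeR). The groups did not overlap in 5 of the 8 members tested, MYC, MAX, MXD3, MXD4 and MGA, where 34.2% of genes tested did not overlap. MXD1 at 2 to 12 reads and MYCN at 1 to 6 reads per Input library were too few to be tested.

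In polysomes, where the comparison asked which mRNAs changed with ribosomes attached, MYC rose and MXD4 fell. These were 1 member called higher and 1 lower of 9 tested, beside 3.95% of 14420 genes called higher and 4% lower. The median log2 FC of the 9 was 0.35, beside 0.03 over all genes.

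MYC stood at 86.1, 84.1, 114 and 109 CPM in Polysome Ctrl and at 124, 182, 158 and 135 CPM in Polysome siRNAG5. The lowest siRNAG5 library lay above the highest Ctrl library, and siRNAG5 replicate 2 was the highest. The rise came to 0.61 ± 0.17 (adjusted p = 0.0465, edgeR), a fold of 1.52. It was close to the p limit, since it was called in 2 of the 8 fits without 1 library, those without Ctrl replicate 3 and without siRNAG5 replicate 4, and had an adjusted p up to 0.152 in the others, at log2 FC of 0.51 to 0.70 over the 8 fits. RLE size factors also ended the call (log2 FC 0.57, adjusted p = 0.0519, edgeR). Without the 3 libraries that lay apart, it was 0.73 ± 0.16 (adjusted p = 0.00813, edgeR).

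MXD4 stood at 177, 176, 136 and 133 CPM in Polysome Ctrl and at 98.9, 73.3, 79.7 and 130 CPM in Polysome siRNAG5. The groups did not overlap, although siRNAG5 replicate 4 at 130 CPM came close to Ctrl replicate 4. The fall came to -0.70 ± 0.19 (adjusted p = 0.0476, edgeR). It was called in 1 of the 8 fits without 1 library, that without siRNAG5 replicate 4 (log2 FC -0.89), while the others gave an adjusted p up to 0.160. Without the 3 libraries that lay apart it was -0.96 ± 0.17 (adjusted p = 0.0027, edgeR).

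MAX, called lower in Input, stood at 106, 97.6, 99.2 and 91 CPM in Polysome Ctrl and at 72.8, 72.8, 86.5 and 94.0 CPM in Polysome siRNAG5. Here the groups overlapped through siRNAG5 replicate 4, and the difference was -0.27 ± 0.13 (adjusted p = 0.213, edgeR). Its sign depended on the scaling, since library sizes alone gave 0.075.

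Most of the weakly expressed members had higher means in siRNAG5 without being called. MYCL went from 5.29 ± 0.943 to 7.79 ± 1.04 CPM (SD, n = 4; log2 FC 0.56, adjusted p = 0.0869, edgeR), and MXD1, a repressor that increases when cells differentiate, from 1.95 ± 0.635 to 3.32 ± 0.510 CPM (0.74, adjusted p = 0.0956). In both, all siRNAG5 libraries were higher than all Ctrl libraries. MYC, MYCL, MXD1 and MXD4 were the 4 of 9 members whose groups did not overlap, where 18.2% of genes tested did not. MNT had a log2 FC of 0.51 (adjusted p = 0.222, edgeR), MXD3 0.35 (0.167), MXI1 0.31 (0.245) and MGA 0.10 (0.876). MYCN had 0 to 7 reads in Polysome Ctrl and 7 to 19 in Polysome siRNAG5 and was not tested. Without the 3 libraries that lay apart, MYCL (0.75, adjusted p = 0.0242) and MNT (0.69, adjusted p = 0.0391) were also called higher. With MYC these made 3 of 9 members tested, beside 1327 of 14717 genes called higher in that fit.

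**Figure D2:**
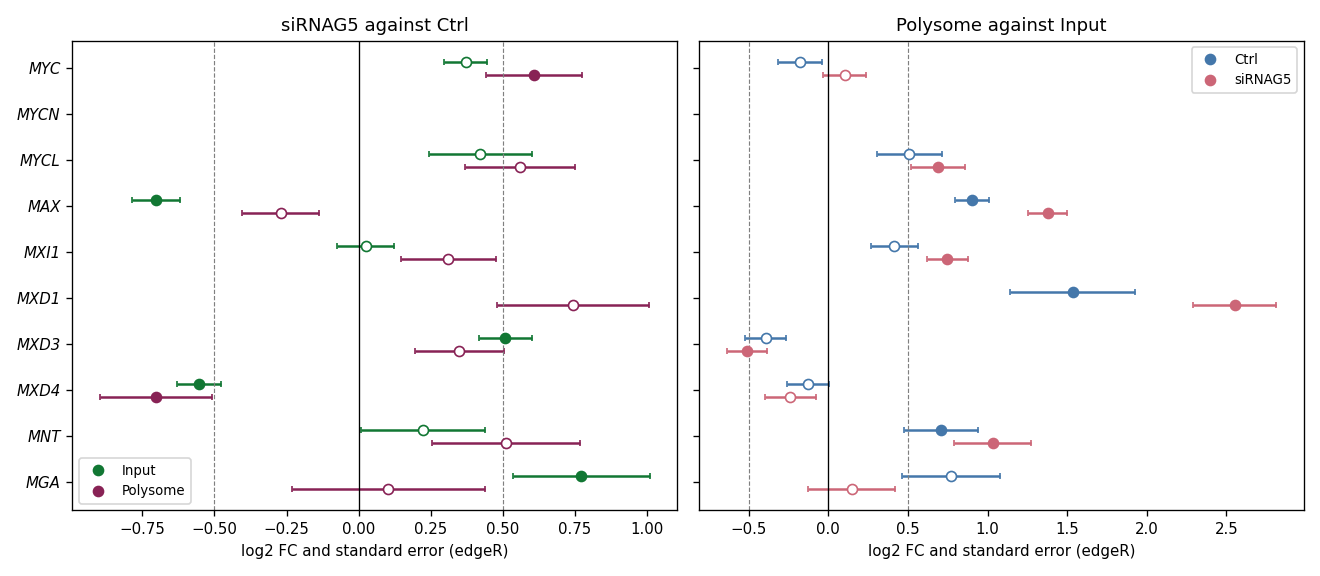
log2 FC and standard error (horizontal axis) of each member after siRNAG5 in Input and Polysome (left) and in Polysome against Input within Ctrl and siRNAG5 cells (right), with filled points for called and open points for uncalled genes and dashed lines at the fold limit. MAX and MXD4 lie left of 0 after siRNAG5 in both fractions, and MAX and MXD1 lie to the right in Polysome against Input.

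The difference between the changes of the 2 fractions was tested in a fit of all 16 libraries and did not pass for any member. It called 0 of 14958 genes, 0% (edgeR), against 517 lower and 272 higher with unadjusted p values below 0.05 and the same fold limit, and 11 lower and 18 higher with DESeq2. The change of MAX in Polysome minus that in Input was 0.41 ± 0.15 (unadjusted p = 0.0123, adjusted p = 0.520, edgeR). For MYC it was 0.21 ± 0.19 and for MXD4 -0.18 ± 0.22, for MGA -0.70 ± 0.43 and for MXD3 -0.19 ± 0.17. A call of MAX, MXD3 and MGA in Input but not in Polysome, and of MYC in Polysome but not in Input, is therefore no shown difference between the fractions.

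Changes given so far are relative to a scaling in which most genes stay put. With library sizes alone, the median log2 FC of all genes was 0.14 in Input and 0.38 in Polysome after siRNAG5, in place of 0.04 and 0.03, and the members moved with it. Then MYC, MYCL, MXD1 and MXD3 were called higher in Polysome and none lower, with MXD4 at -0.36. Of 14420 genes tested, 2307 were called higher and 207 lower under that scaling.

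The ratio of the reads of a pair of members within a library does not depend on scaling. These ratios were chosen after the levels had been seen and are given as a description. Where 1 gene of a pair rose and the other fell without overlap of the groups, the ratio had to separate too. This was so for MYC and MXD4 in both fractions, and for MYC and MAX and for MXD3 and MXD4 in Input. How often the ratios of other gene pairs separate was not examined. MYC had 2.31, 1.77, 2.13 and 2.27 reads per MAX read in the 4 Input Ctrl libraries and 4.67, 4.88, 3.70 and 4.72 in the Input siRNAG5 libraries. In Polysome the ratio was 0.815 to 1.20 in Ctrl and 1.44 to 2.51 in siRNAG5, lower than in Input and again without overlap between conditions. MXD3 had 0.173, 0.136, 0.158 and 0.160 reads per MXD4 read in Input Ctrl and 0.329, 0.354, 0.310 and 0.307 in Input siRNAG5, and in Polysome 0.118 to 0.147 in Ctrl and 0.233 to 0.306 in siRNAG5. The ratio of MXD3 to its relative MXD4 was higher in each siRNAG5 library of both fractions than in any Ctrl library. MYC had 0.507 to 0.788 reads per MXD4 read in Input Ctrl and 1.04 to 1.43 in Input siRNAG5, and 0.478 to 0.837 and 1.04 to 2.49 in Polysome.

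**Figure D3:**
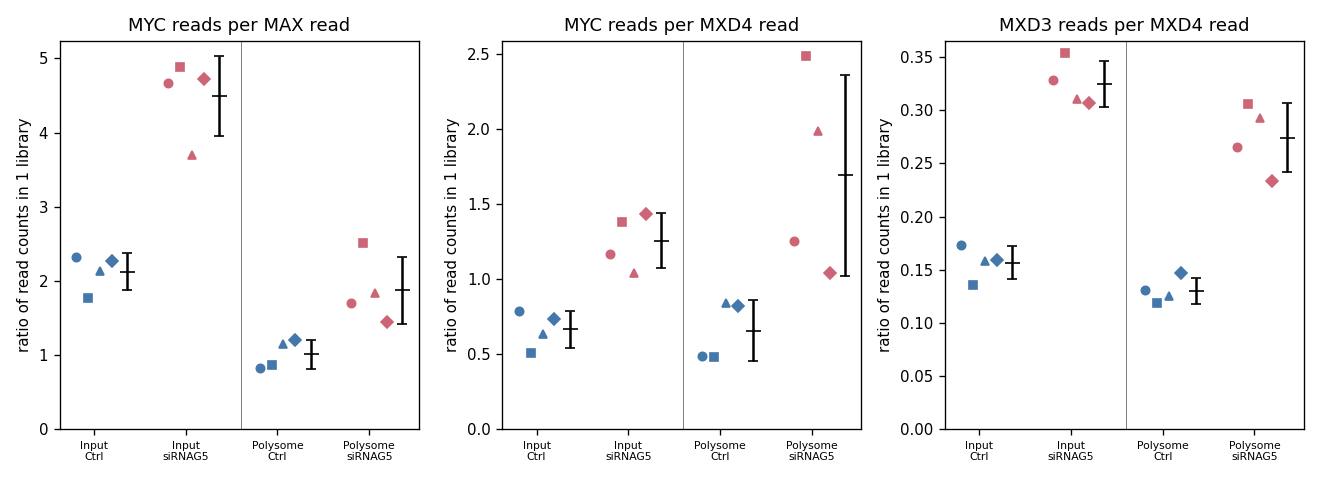
Ratios of read counts within a library (vertical axis) for MYC per MAX, MYC per MXD4 and MXD3 per MXD4 in the 16 libraries, with Ctrl in blue, siRNAG5 in red, the replicate as the marker shape and bars for mean and SD (n = 4). In each fraction all siRNAG5 libraries lie above all Ctrl libraries in the 3 ratios, from 1.77 to 2.31 against 3.70 to 4.88 for MYC per MAX in Input.

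Per kilobase of all exons together, MYC made up 29.2 ± 3.04% of the summed level of the 10 members in Input Ctrl (SD, n = 4). It made up 39.6 ± 2.86% in Input siRNAG5, and 24.3 ± 4.22% and 36.7 ± 5.91% in Polysome Ctrl and siRNAG5. MXD4 made up 39.5 ± 3.55% and 28.3 ± 2.18% in Input, and 34.0 ± 4.78% and 20.7 ± 4.98% in Polysome. These shares depend on the length used. Per kilobase of canonical transcript, MAX and not MXD4 was the most abundant member in Polysome Ctrl. The summed level was 39.8 ± 1.45 and 37.8 ± 0.677 CPM per kb in Input Ctrl and siRNAG5, and 66.4 ± 2.26 and 67.0 ± 5.18 in Polysome. Each fraction has its own scale, so these sums do not compare Polysome with Input.

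The log2 FC of Polysome against Input varied between members, which were not tested against each other. It is relative to all genes and does not measure the part of an mRNA found in polysomes. These comparisons share their libraries with those above, and each has a CPM scale of its own fit. In Ctrl cells MAX, MXD1 and MNT were higher in Polysome than in Input, 3 of 9 members tested beside 20.8% of 13666 genes, and 0 were lower beside 18.8%. In siRNAG5 cells MYCL, MAX, MXI1, MXD1 and MNT were higher, 5 of 9 beside 23.9% of 14795 genes, and MXD3 was lower, 1 of 9 beside 21.2%.

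MAX stood at 37.2, 39.2, 38.3 and 40.5 CPM in Input Ctrl and at 76.6, 72.0, 73.0 and 68.3 CPM in Polysome Ctrl. The values of each group were close together and the log2 FC was 0.90 ± 0.11 (adjusted p = 5.99e-06, edgeR). In siRNAG5 cells it stood at 25.7, 26.1, 30.5 and 27.3 CPM in Input and 63.1, 64.5, 76.2 and 81.5 CPM in Polysome, a log2 FC of 1.38 ± 0.12 (adjusted p = 4.097e-06, edgeR). Both calls held under each of the 17 alternatives.

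MXD1 had the largest difference of Polysome from Input among the members in both conditions, though on few reads. It had 2, 10, 9 and 4 reads in Input Ctrl and 12, 29, 36 and 16 in Polysome Ctrl, and 5, 8, 12 and 7 reads in Input siRNAG5 and 54, 79, 54 and 50 in Polysome siRNAG5. The log2 FC was 1.53 ± 0.39 (adjusted p = 0.00417, edgeR) in Ctrl and 2.55 ± 0.26 (adjusted p = 1.148e-05) in siRNAG5. MXD1 shares 3.73% of its exon bases, on the same strand, with SNRNP27, a spliceosome component whose log2 FC was 0.30 and 0.38.

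MNT, the repressor present in most cells, had log2 FC of 0.71 ± 0.23 in Ctrl (adjusted p = 0.0203, edgeR) and 1.03 ± 0.24 in siRNAG5 (adjusted p = 0.00362). The former was lost in 4 of 8 fits without 1 library and, at 0.79 with adjusted p = 0.0795, without the 2 Input Ctrl libraries with liver RNA. MXI1 was at 0.42 in Ctrl and 0.75 in siRNAG5, and MYCL at 0.51 (adjusted p = 0.0511, edgeR) and 0.69. MGA was at 0.77 ± 0.31 in Ctrl (adjusted p = 0.0512, edgeR), where 6 of 17 alternatives called it, and at 0.15 ± 0.27 in siRNAG5.

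MYC, MXD4 and MXD3 did not share this pattern. MYC was at -0.18 ± 0.14 in Ctrl and 0.10 ± 0.13 in siRNAG5, MXD4 at -0.13 ± 0.13 and -0.24 ± 0.16, and MXD3 at -0.39 ± 0.13 and -0.51 ± 0.13, relative to medians of all genes of -0.03 and -0.04. With library sizes alone those medians were 0.51 and 0.69, and MYC (0.38 and 0.86), MXD4 (0.40 and 0.48) and MXD3 (0.13 and 0.21) then lay above 0, all of them below the median of all genes except MYC in siRNAG5. Without the 2 siRNAG5 Polysome libraries that lay apart, MYC was at 0.37 (adjusted p = 0.000478, edgeR), below the fold limit. The call of MXD3 in siRNAG5 cells (adjusted p = 0.00498, edgeR) lay close to the fold limit. It held under 10 of 17 alternatives and in 4 of 8 fits without 1 library.

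Transcript length moved with these comparisons. In Polysome against Input of Ctrl cells the median log2 FC was -0.22 for canonical transcripts of up to 1500 nt and 0.36 for those over 5000 nt. After siRNAG5 it was -0.17 and 0.14 in Input, and -0.34 and 0.19 in Polysome. In Polysome against Input of siRNAG5 cells, 1.92% of protein-coding genes of up to 1500 nt were called higher. Of those from 3501 to 5000 nt it was 38.2%, and of those over 5000 nt 44.5%. The members called in any comparison run across this range, with MXD3 at 1067 nt, MAX at 2010 nt, MXI1 at 3470 nt and MYCL at 3522 nt. MYC was at 3721 nt, MXD4 at 3871 nt, MNT at 4925 nt, MXD1 at 5549 nt and MGA at 12193 nt. The part of length in their changes was not tested.

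Of the genes that MYC is known to activate, 56 of 62 lay below 0 after siRNAG5 in Input and 53 of 62 in Polysome. The medians of all genes were 0.04 and 0.03. The part of transcript length, or of ribosome assembly genes as a class, in these values was not tested. Of the list of 63 such genes, many of them of ribosome assembly and others of the cell cycle, mitochondria and polyamine synthesis, 62 could be tested in each fraction. In Input 21 were called lower (6.02% of all genes) and 2 higher (10.5% of all genes), with a median log2 FC of -0.41. In Polysome 16 were called lower (4% of all genes) and 0 higher (3.95% of all genes), with a median of -0.50. The 13 genes lower in both are 61.9% of those in Input and 81.2% of those in Polysome. The share of all genes lower in both is not given here. With library sizes alone, 14 and 5 were called lower, beside 450 of 14134 genes in Input and 207 of 14420 in Polysome.

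NOP16, a nucleolar protein of large ribosomal subunit assembly, had the largest fall of the list in each fraction, from 211 to 89.2 CPM in Input (log2 FC -1.24 ± 0.08, edgeR adjusted p = 3.053e-12) and from 305 to 111 CPM in Polysome (-1.47 ± 0.19, adjusted p = 0.0019). In Input it was followed by NOP56, a core protein of box C/D nucleolar RNPs, at -0.98, and RRP9, a U3 snoRNP protein, at -0.92. In Polysome it was followed by PUS1, which makes pseudouridine in tRNA, at -1.14, and DCTPP1, a nucleotide pyrophosphatase, at -0.99. The 2 higher in Input, named after their values were seen, were the kinase MAP3K6 at 0.74 and the glycolytic enzyme HK2 at 0.65.

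Of 6 genes that MYC is known to repress, 3 were called higher in Input (10.5% of all genes) and 2 in Polysome (3.95% of all genes), and none lower, with medians of 0.48 and 0.47. GADD45A, a stress-induced growth arrest gene, was at 0.87 and 0.76. CDKN1A, the cell cycle inhibitor p21, was at 0.64 and 0.61, and NDRG1, a gene induced by hypoxia, rose by 0.70 in Input. CDKN1A and GADD45A are also well-known targets of p53.

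The related MLX branch shares the E-box but uses MLX in place of MAX. MLXIPL (ChREBP), a glucose-sensing member of the branch, rose in Input from 1.53 to 3.06 CPM (log2 FC 1.00 ± 0.20, adjusted p = 0.000223, edgeR). It was 1 of 3 genes, and none of the 3 was called in Polysome. MLXIP was at 0.27 in Input and 0.44 in Polysome, and MLX at -0.29 and -0.42, all uncalled. Of all genes, 10.5% were called higher in Input and 3.95% in Polysome. The MondoA targets TXNIP, an inhibitor of thioredoxin and of glucose uptake, and its relative ARRDC4 rose in both fractions. TXNIP went from 4.43 to 15.1 CPM in Input (1.77 ± 0.13, adjusted p = 2.799e-11, edgeR) and from 7.23 to 24.5 CPM in Polysome (1.75 ± 0.28, adjusted p = 0.00734). ARRDC4 was at 0.82 and 0.99.

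The counts of the following lists stand beside 6.02% of all genes called lower and 10.5% higher in Input, and 4% and 3.95% in Polysome. Among 13 cofactors of MYC, the acetyltransferase KAT2A was called lower in both fractions, at -0.56 and -0.83, and BPTF, a chromatin remodeler subunit (0.61), and BIN1, a MYC-binding adaptor (0.51), rose in Input. Of 12 genes that set the stability of MYC protein, only the kinase PIM1 was called, in Input at 0.67, and none in Polysome. MYCBP, which binds the amino terminus of MYC, was called lower in Polysome at -0.61, and its namesake MYCBP2 was not called. Of 12 SIN3 and HDAC corepressor genes, SAP30 was lower in both fractions, at -0.60 and -0.79, as was SIN3B, at -0.51 and -0.54, and the other 10 were not called. Of 10 partners of MGA in PRC1.6, TFDP1, the dimer partner of E2F6, fell in Input (-0.70) and RYBP rose in Polysome (0.65).

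**Figure D4:**
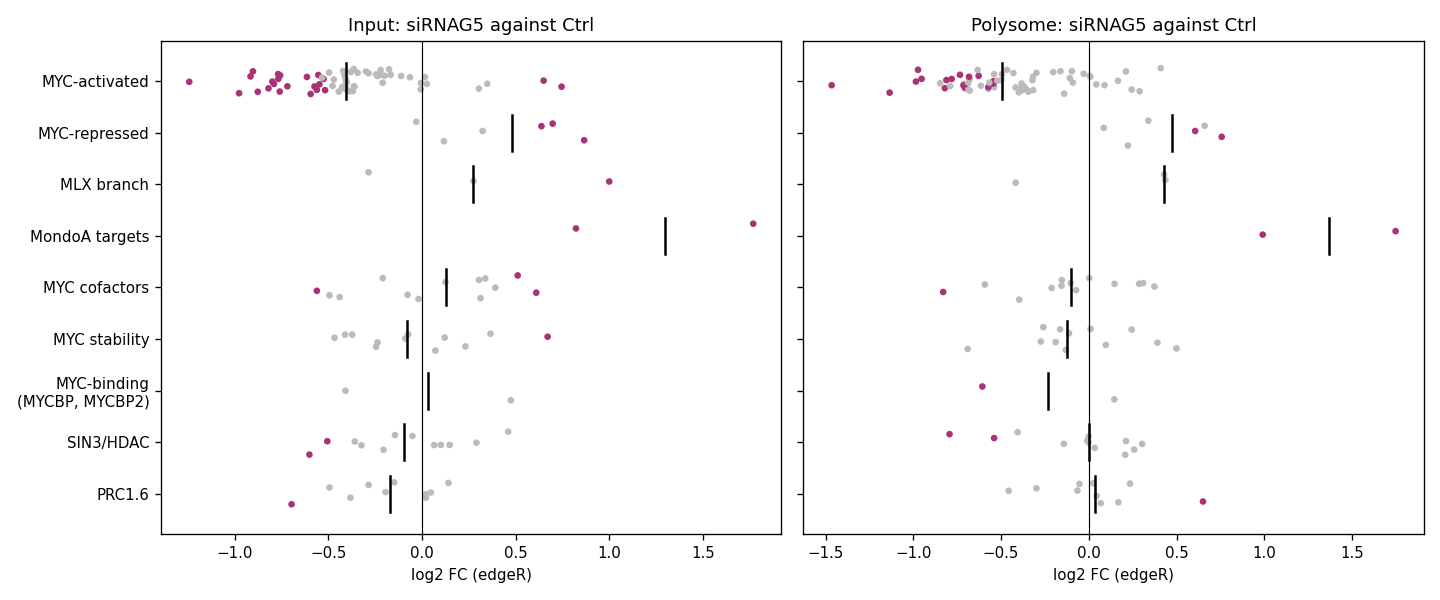
log2 FC after siRNAG5 (horizontal axis) of each tested gene of 9 lists around the network in Input (left) and Polysome (right), with called genes in magenta, uncalled genes in grey and the list median as a black line. The medians of the MYC-activated genes lie at -0.41 and -0.50 and those of the MYC-repressed genes at 0.48 and 0.47.

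The profile of MYC over the 16 libraries, as log2 CPM centred on the gene's mean, was closest to those of AASDH, SLC8B1 and DCAF5, with root mean square differences of 0.15, 0.15 and 0.16 among 14957 genes. None of these 3 was called after siRNAG5, at log2 FC of 0.29, 0.33 and 0.46 in Input and 0.45, 0.43 and 0.49 in Polysome. Within the network MXD3 was the nearest to MYC (0.35), though only at rank 1973 of the 14957 genes, and MYCL and MXI1 followed closely (both 0.37). MXD1 (1.08) and MAX (0.80) were the farthest of the 8 members compared.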

How the data were processed

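Stranded libraries of polyadenylated RNA were aligned by the authors to GRCh38 (Ensembl release 91) with STAR 2.5.3a and counted per gene with QoRTs. The deposited values are whole-number counts without normalization. Whether counting used the strand is not given in the sources used here, so antisense neighbours are named beside MAX and MXD3. On the opposite strand MAX also shares 9.96% of its exon bases with CHURC1-FNTB, and MNT shares 12.2% with a long noncoding RNA. Smaller antisense overlaps of other members are not listed. Reads listed apart from genes (several places, 4.88 to 42.4% of a library; more than 1 gene, 4.14 to 7.41%; no gene, 0.667 to 1.33%) were left out, so precision rests on the counted reads. The comparisons were tested by quasi-likelihood in edgeR 4.0.16 under R 4.3.3 (filterByExpr, TMM factors, Benjamini-Hochberg adjustment over all genes tested), without covariates. The study used DESeq2, which was run as an alternative (1.42.0), as were RLE factors, no filter, a surrogate variable (sva 3.50.0), all libraries in 1 fit, the replicate block and libraries left out. Scaling by library size alone, and leaving out the Input Ctrl libraries with liver RNA or 2 Polysome siRNAG5 libraries, were chosen after seeing the data. Members and lists were chosen with earlier results of these data known. The text names all members, the called genes with the 3 largest changes of each list in each fraction, and the 3 genes most like MYC. Levels per kb use GENCODE v44 exons. Tables used Python 3.11.15, pandas 2.3.3 and matplotlib 3.10.9. On simulated counts with 200 changed genes edgeR recovered 183 in the Input design (14134 genes) and 140 in the Polysome design (14420 genes). In the design for the difference between fractions (14958 genes) edgeR recovered 129. Recovery of genes that change as little as the members did was not tested.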

Additional observations from a re-analysis of the deposited data

Results flagged for a closer look

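Of 40 groups of 4 values (10 members in 4 groups), 2 held a library far from the others of its group by Dixon's ratio (above its 95% critical value), and chance alone flags about 1 in 20 groups. MYCN in Polysome siRNAG5 replicate 2 stood at 0.944 CPM, where the nearest library of its group was at 0.526 and the lowest at 0.462, which rests on 19 reads against 7 to 9. MGA in Input siRNAG5 replicate 4 stood at 1.51 CPM, where the nearest library was at 2.13 and the highest at 2.25, and without it the log2 FC of MGA in Input was larger, at 0.89, and still called.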

How the results depend on the processing

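Over all alternatives, 734 of the repeated values kept their direction and side of the threshold, or stayed within 1.5 times for counts. The counts of members called after siRNAG5 rest on values near the limits. In Input, 1 member was called higher with RLE or DESeq2 and 0 in the fit of all 16 libraries. With library sizes alone 1 member and 450 genes were called lower. In Polysome, 0 members were called higher with RLE or with the replicate block, 2 in the fit of all 16 libraries, 3 with the unadjusted p, with 1 surrogate variable or without the 3 libraries that lay apart, and 4 with library sizes alone, which called 0 members lower. Genes called in Polysome, lower and higher, numbered 1343 and 1599 with the unadjusted p, 207 and 2307 with library sizes alone, 1520 and 1077 with all 16 libraries, 1394 and 1522 with 1 surrogate variable, and 1788 and 1327 without the 3 libraries that lay apart. Without a filter on low counts 941 were lower, and with DESeq2 1101. MYC-activated genes called lower in Polysome numbered 27 with the unadjusted p or DESeq2, 31 with all 16 libraries, 35 with 1 surrogate variable, 25 without the 3 libraries that lay apart and 5 with library sizes alone. The 2 last settings called 1 higher, and in Input the fit of all 16 libraries called 1 higher. Polysome against Input gave 758 lower and 6246 higher genes in Ctrl and 797 and 8516 in siRNAG5 with library sizes alone. Members called higher in Ctrl were then 6, and 5 with the unadjusted p. Members called lower in siRNAG5 were 0 with library sizes alone, no filter or 1 surrogate variable. The difference between fractions called 517 lower and 272 higher genes with the unadjusted p, 29 and 28 with no filter, 11 and 18 with DESeq2, 659 and 106 without the 3 libraries that lay apart, 2 lower with 1 surrogate variable and 9 lower without the 2 Input Ctrl libraries with liver RNA. The cause of these shifts was not tested.

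Leaving out 1 library at a time gave 0 to 3 members called higher in Input and 1 to 2 MYC-activated genes called higher. In Polysome it gave 113 to 836 genes lower and 76 to 687 higher, 0 to 1 members in either direction and 4 to 17 MYC-activated genes lower. The lowest counts came without Ctrl replicate 2. In Polysome against Input it gave 2 to 6 members higher in Ctrl and 0 to 1 lower in siRNAG5, and for the difference 0 to 1 genes lower.

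Signs turned only for uncalled values or under library sizes alone. The log2 FC of MXI1 in Input was -0.030 and -0.014 without Ctrl or siRNAG5 replicate 2, in a range of -0.030 to 0.096 over libraries left out, and -0.018 without the 2 libraries with liver RNA. MGA in Polysome was -0.0038 with 1 surrogate variable and -0.095 to 0.39 over libraries left out, below 0 without Ctrl replicate 1, Ctrl replicate 2 or siRNAG5 replicate 2. In Polysome against Input of siRNAG5 cells MGA was -0.069 to 0.38 and MYC -0.0077 to 0.19 over libraries left out, below 0 without Polysome siRNAG5 replicate 2, and MYC was -0.0012 with 1 surrogate variable. MYCL in the difference between fractions was -0.0032 to 0.21 over libraries left out, below 0 without Input Ctrl replicate 3, and -0.010 without both Input Ctrl libraries with liver RNA. With library sizes alone MAX in Polysome was 0.075, Polysome against Input in Ctrl was 0.38 for MYC, 0.13 for MXD3 and 0.40 for MXD4, in siRNAG5 0.21 for MXD3 and 0.48 for MXD4, and the difference between fractions 0.081 for both.

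Replicate numbers did not pair the samples, with correlations of same-numbered deviations of -0.53 to 0.48, and the replicate block gave 847 lower and 1466 higher genes in Input and 558 and 444 in Polysome, where MYC lost its call. Depth limits MYCN, MXD1, MNT and MGA most, and differences of these members may not be detectable at this depth.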
